A study of Mus musculus with 8 samples.

Results

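The 2-oxoglutarate dioxygenases examined here are the genes named Kdm2 to Kdm8, Jmjd, Alkbh, P4ha, Plod and Ogfod together with Tet1, Tet2, Tet3, Phf2, Phf8, Fto and Uty. The rule is one of gene symbols only and uses no measured value. It found 46 genes with 68 probes among the 22485 genes and 33026 probes that carry a symbol on the array. Of these, 44 genes with 65 probes had enough values to be tested, out of 18568 genes with 26901 probes. Kdm4dl and Kdm5d, with 1 probe each, and 1 of the 2 probes of Uty did not.

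Adrenal medulla RNA, dissected away from the cortex, was hybridised on 8 Agilent two-color oligonucleotide arrays. SDHD-ESR mice (4 arrays) carry SdhD flox/- and Cre-ER, a recombinase that tamoxifen switches on, and their heterozygous (+/-) littermates (4 arrays) carry SdhD flox/- without Cre. Each array held the RNA of 2 males, and the same Cy3-labeled pool of 8 wild-type (+/+) mice, SdhD flox/+ without Cre, lay on every array beside the Cy5-labeled test RNA. All animals, the pool included, were on a 129/SvJ background, were 10 weeks old by the labels and received tamoxifen at 100 µg/g on 4 days, with tissue taken 1 week after the first injection. Every +/- control therefore also has 1 null SdhD allele, and loss of the floxed allele cannot be told apart from the presence of active Cre. Replicates 1 and 2 of both groups lay on slide 1, and replicates 3 and 4 on slide 2.

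Dioxygenases of this family split molecular oxygen with an iron(II) ion, oxidise their substrate and turn 2-oxoglutarate into carbon dioxide and succinate. Succinate dehydrogenase, of which SdhD encodes a small membrane subunit, removes that succinate. When the complex fails, succinate accumulates and competes with 2-oxoglutarate at the active site, and histone demethylases, TET enzymes and prolyl hydroxylases are known to be slowed in this way in SDH-deficient tumors. That inhibition acts on the protein. What was measured here is the messenger RNA of the enzymes, so enzyme activity, methylation and hydroxylation were not measured.

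Each value is the log2 ratio of a spot to the +/+ pool, so 1 unit is a doubling and a ratio shows no absolute level. Without a level, the tissue label could not be checked against its markers. As a check of the labels, Sdhd had log2 ratios of -5.00, -6.19, -5.26 and -4.86 in SDHD-ESR and of -1.10, -2.25, -0.74 and -0.29 in +/-. The sign of the deposited ratios had been turned so that Sdhd is low in SDHD-ESR, and its direction is therefore not a separate result. Chromaffin cell genes had a median difference between SDHD-ESR and +/- of 0.00 over 10 genes and adrenal cortex genes one of 0.05 over 10 genes, against -0.05 over all genes. On the +/- arrays the chromaffin median ran only from -0.00 to 0.08 and the cortex median from -0.01 to 0.00. The median of all genes ran from -0.16 to 0.37 there. Medians so close to 0 do not show that chromaffin or cortex RNA was unchanged. In these lists 1 of 21 chromaffin probes (Chgb, 1.23) and 1 of 13 cortex probes (Mc2r, 0.55) passed an unadjusted p of 0.05. Both were higher in SDHD-ESR, as 1.78% of all probes were. The Chgb probe had an SD of 1.06 over 3 SDHD-ESR arrays. As a gene, by the median over its probes on each array, Chgb differed by -0.00. Macrophage genes (7 of 7 lower, median -0.60), fibroblast and connective tissue genes (9 of 9 lower, median -0.63), endothelial genes (9 of 9 lower, median -0.40) and adipocyte genes (7 of 7 lower, median -0.68) lay below 0. The slides differed in this. Within slides 1 and 2 the median was -0.29 and -0.76 for macrophage genes and -0.20 and -1.02 for fibroblast genes. It was 0.00 and -0.67 for endothelial genes and 0.44 and -1.35 for adipocyte genes, against 0.27 and -0.33 over all genes. At an unadjusted p of 0.05, 11 of 18 macrophage probes, 5 of 19 fibroblast probes, 2 of 20 endothelial probes and 1 of 17 adipocyte probes were lower in SDHD-ESR (3.06% of all probes were), and none passed the adjusted test, which no probe on the array did in this comparison. In whole tissue, fewer cells of a type and less RNA per cell cannot be told apart.

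On SDHD-ESR replicate 1, part of the grid is displaced by 1 line. Its correlation with the mean of the other arrays was 0.43 on the 44% of lines that are aligned, and in the shifted 39.8% it was 0.02 on the same line and 0.45 at 1 line away. Values of this array outside the aligned lines were left out. This took its value from 32 of the 65 member probes, and for 18 of the 44 genes every tested probe is affected. Such genes have 3 SDHD-ESR values, of replicates 2, 3 and 4. Those given below array by array are described as having replicate 1 left out. Alkbh2, Kdm2a, Kdm3b, Kdm4a, Kdm4b, Kdm4c, Kdm6b and Kdm7a, given by difference, interval or mean only, are of this kind too. The first probes of Kdm2b, Kdm5b and Kdm5c and the third probes of Alkbh5 and Tet1 also lack replicate 1.

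No dioxygenase messenger RNA passed the adjusted test between SDHD-ESR and +/-. At an adjusted p of 0.05 from limma, 0 of the 65 member probes differed between SDHD-ESR and +/-, and 0 of all 26901 probes did (0%). The smallest adjusted p among members was 0.991. Sdhd, the deleted gene, did not pass either. Its difference was -4.23 (SE 0.47, unadjusted p = 3.23e-05 and adjusted p = 0.22 from limma). The lack of a call therefore does not show that a member was unchanged. At an unadjusted p of 0.05 there were 3 member probes (4.62%), while 4.84% of all probes passed. In SDHD-ESR, 1 was higher (Uty, 1.54% against 1.78% of all probes) and 2 were lower (Kdm2b and Phf8, 3.08% against 3.06%). The share among the members was thus close to the background. With the array medians set to 0, only Uty remained (1.54% against 6.8% of all probes, of which 3.4% were higher and 3.4% lower). The median difference over the 44 genes was -0.02, with 22 genes above 0 and 22 below. It was -0.05 over all genes. The difference was under 0.25 in size for 36 genes, under 0.5 for 39, and smaller than the SD within groups for 40. The exceptions to the last count were Alkbh4, P4ha2, Tet1 and Uty.

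These arrays bound the size of a change that may have been missed. The 95% interval of the difference lay within -1 and 1, thus excluding a doubling or a halving, for 48 of the 65 member probes (73.8%). Over all probes this held for 61.1%. The difference itself was past 1 in size for 2 member probes (3.08%, against 6.13% of all probes), and it was above 0 for 33 (50.8%, against 42.1%). The intervals were narrowest for Ogfod3 (-0.26 to 0.30), the second Kdm5b probe (-0.36 to 0.23) and Alkbh2 (-0.30 to 0.32), and they were widest for the second Kdm4a probe (-2.25 to 4.91). Known changes were added to simulated arrays with the same spread per probe, 100 probes for each size of change. There the adjusted test over 26901 probes found 12% of the doublings (log2 change of 1) and 53% of the changes of 2 log2 units. The simulated noise was independent between probes, without the shifts that whole arrays and slides share. These shares therefore need not hold for the real arrays, where no probe passed, Sdhd with its difference of -4.23 included.

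**Figure D1:**
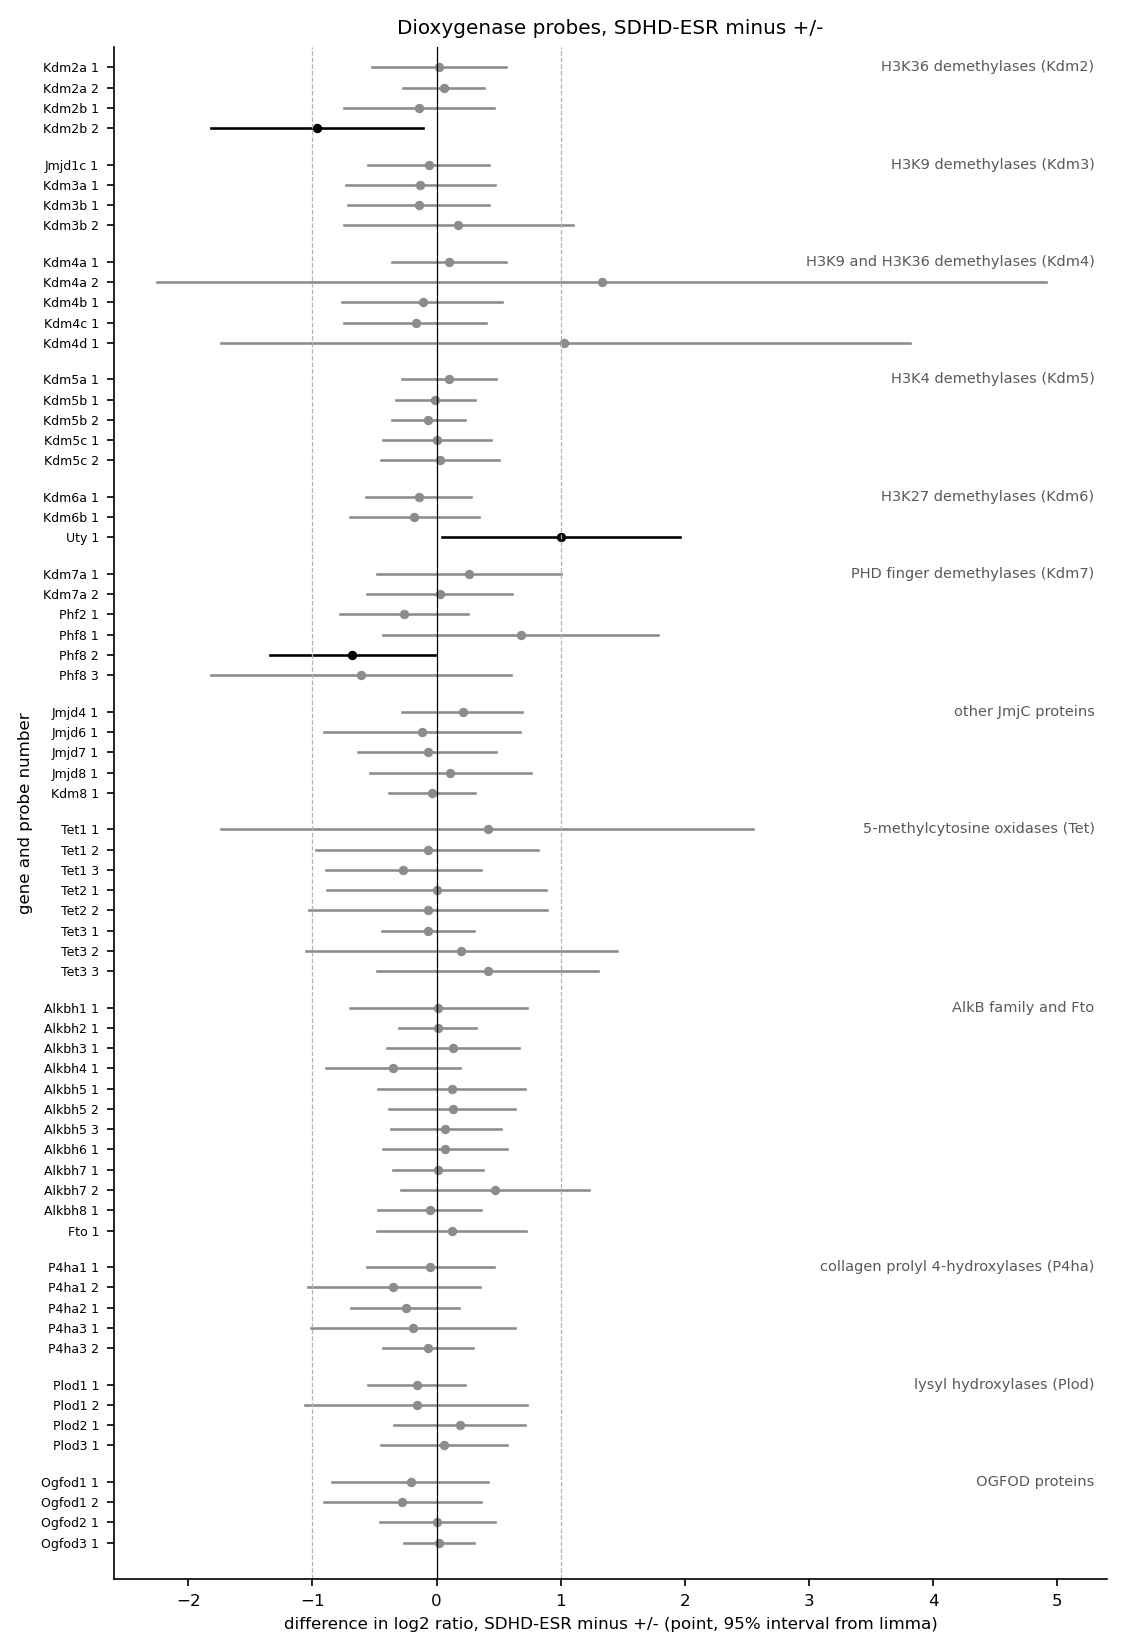
Difference in log2 ratio to the +/+ pool, SDHD-ESR minus +/-, for the 65 member probes, grouped by role, with 95% intervals from limma on the horizontal axis. Dashed lines mark -1 and 1. The 3 probes in black (Kdm2b 2, Uty 1 and Phf8 2) have an unadjusted p of 0.05 or less, and no probe passed the adjusted test.

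The level of the members varied from array to array within each genotype. The median member ratio was 0.38, 0.42, -0.02 and 0.12 on SDHD-ESR replicates 1 to 4, and -0.08, 0.14, 0.36 and 0.45 on +/- replicates 1 to 4. The median of all genes was 0.04, 0.19, -0.10 and 0.07 on the SDHD-ESR arrays and -0.16, -0.01, 0.26 and 0.37 on the +/- arrays. In both groups of genes the SDHD-ESR arrays were the higher ones on slide 1 and the lower ones on slide 2.

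The difference of a dioxygenase gene accordingly took opposite signs on the slides. The median difference over members was 0.34 within slide 1 and -0.33 within slide 2, against 0.27 and -0.33 over all genes. SDHD-ESR was the higher on slide 1 and the lower on slide 2 for 37 of the 44 members (84.1%) and for 59.6% of all genes. The members whose difference had the same sign on both slides were Kdm2b, Kdm4a, Kdm4d, Kdm7a, Tet1 and Uty (13.6%, against 33.2% of all genes). For Kdm2b the sign on slide 1 has no weight, since its difference was -0.00 there and -1.09 on slide 2. Its SDHD-ESR values on slide 1 also come from a different probe on each array. With the array medians set to 0, opposite signs in that order were found for 31.8% of the members and 26.5% of all genes, and the same sign on both slides for 22 members (50%, against 49.8% of all genes). A gene with replicate 1 left out has a single SDHD-ESR array on slide 1.

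**Figure D2:**
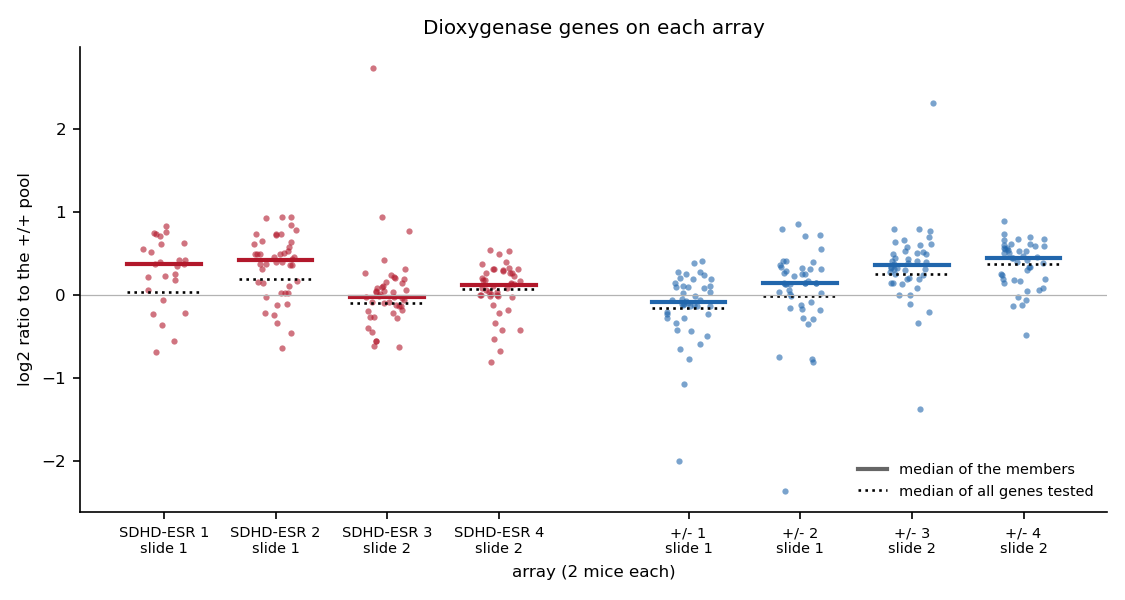
Log2 ratio to the +/+ pool of the dioxygenase genes on each array (points; 26 genes on SDHD-ESR 1 and 44 on each other array), with the median of the members (colored line) and of all genes tested (dotted line). The member median runs from -0.02 to 0.42 on the SDHD-ESR arrays and from -0.08 to 0.45 on the +/- arrays, and lies above the median of all genes on every array.

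**Figure D3:**
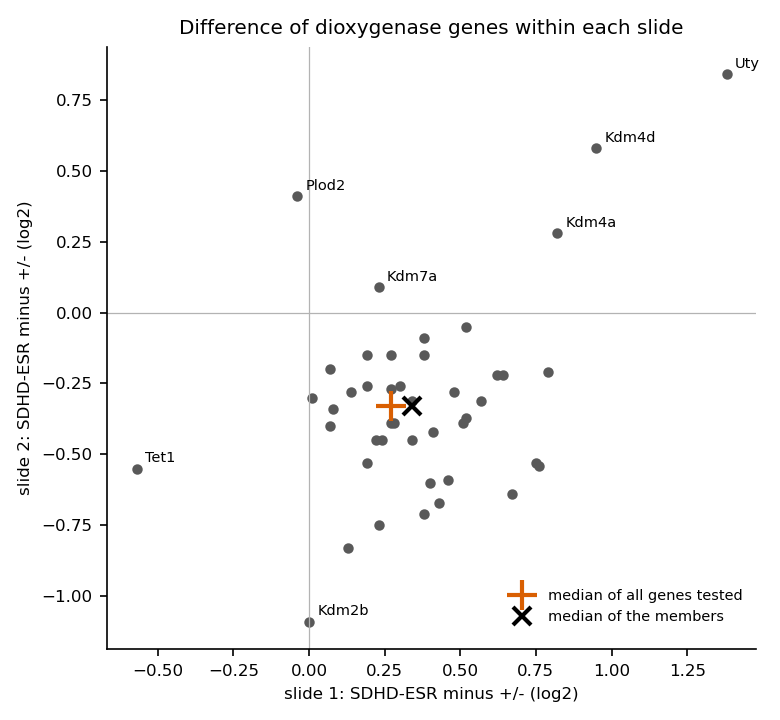
Difference between SDHD-ESR and +/- within slide 1 (horizontal axis) and within slide 2 (vertical axis), in log2 units, 1 point per dioxygenase gene. The members' median (0.34 and -0.33) lies beside that of all genes (0.27 and -0.33), and 37 of 44 genes lie to the right of 0 and below it.

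The TET enzymes oxidise 5-methylcytosine in DNA and so start its removal. None of their 8 probes passed either threshold between the genotypes. Tet1 was measured by 3 probes that disagree. Its first probe had ratios of -0.42, 0.10, -0.55 and 3.29 in SDHD-ESR and of -1.12, 0.79, 0.63 and 0.51 in +/-. The second had -0.68, 0.20, 0.80 and -0.04 in SDHD-ESR and -0.06, 0.97, -0.20 and -0.14 in +/-. The third, with replicate 1 left out, had 0.14, -0.63 and 0.21 in SDHD-ESR and 0.04, -0.12, 0.32 and 0.45 in +/-. The groups overlap in all of them. Their differences were 0.41 (SE 0.91), -0.07 (SE 0.38) and -0.27 (SE 0.26). A per-array median over these probes gives Tet1 a difference of -0.56, the lowest of all members, while their mean gives -0.02, so the gene-level value depends on how the probes are joined.

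Tet2 was high on SDHD-ESR replicate 2 and low on +/- replicate 1 with both probes. With replicate 1 left out, its first probe had 0.74, -0.25 and 0.43 in SDHD-ESR and -0.46, 0.55, 0.75 and 0.40 in +/-. The second probe had 1.14, -0.14 and 0.22 in SDHD-ESR and -0.22, 0.87, 0.80 and 0.45 in +/-. The groups overlap, with differences of 0.00 (SE 0.37) and -0.07 (SE 0.40).

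Tet3 has 3 probes, all with replicate 1 left out. The most even probe had 0.33, 0.05 and 0.18 in SDHD-ESR and 0.00, 0.36, 0.19 and 0.46 in +/-, a difference of -0.07 (SE 0.15). The second had 0.68, -0.27 and -1.07 in SDHD-ESR and 3 values, -0.20, -0.16 and -0.91, in +/-. The third had 0.58, 0.21 and 0.60 in SDHD-ESR and -0.86, 0.01, 0.57 and 0.48 in +/-. SDHD-ESR and +/- overlap with each of them, and the second probe differed by 0.20 (SE 0.50) and the other by 0.41 (SE 0.37).

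**Figure D4:**
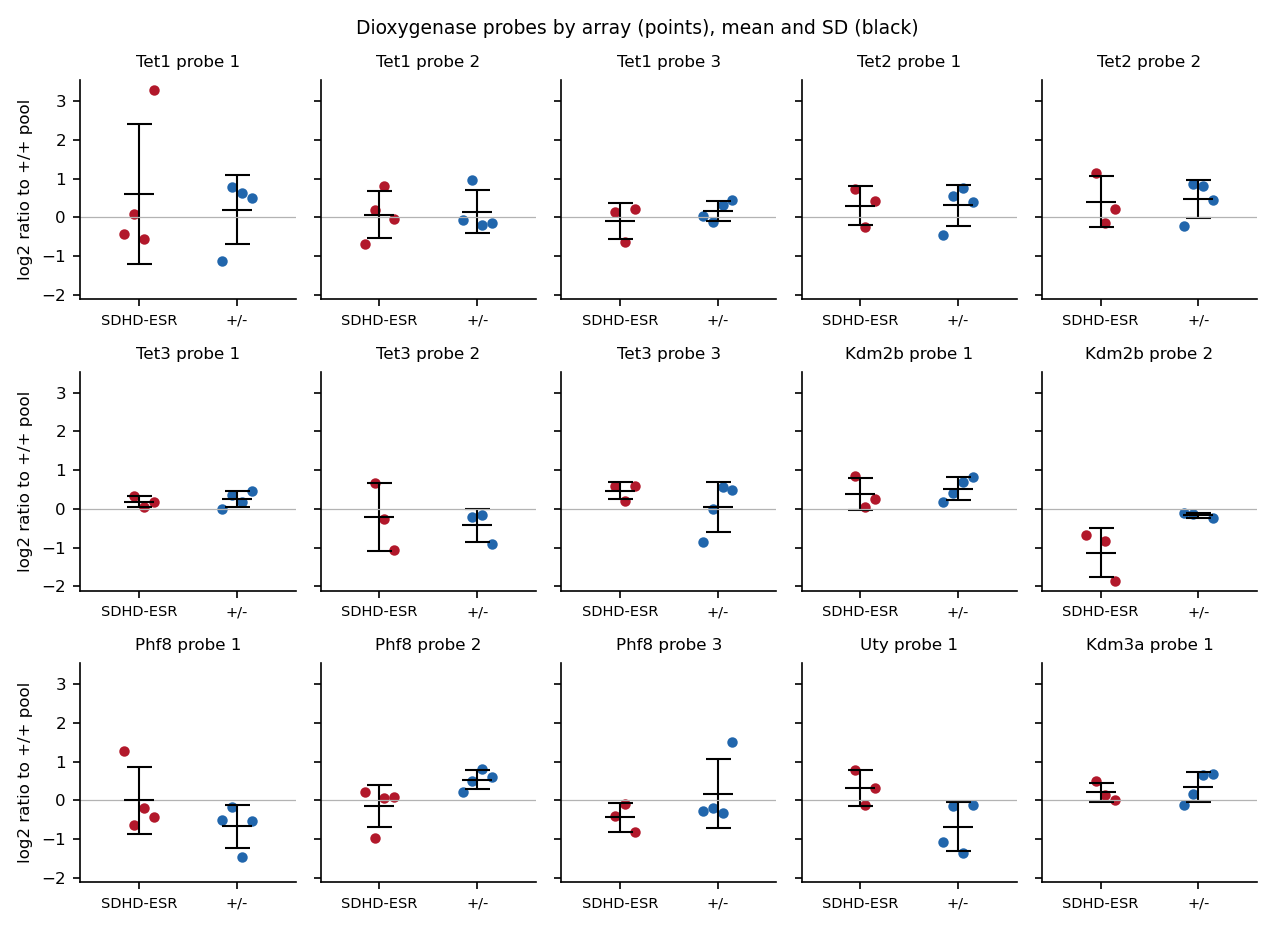
Log2 ratio to the +/+ pool of 15 member probes by array, with SDHD-ESR at the left and +/- at the right of each panel. Points are arrays (3 or 4 per group), and black bars give the mean and the SD. The groups are separate for Kdm2b probe 2, Phf8 probe 2 and Uty probe 1 and overlap in the other panels.

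Among the JmjC histone demethylases, the Kdm2 enzymes act on methylated lysine 36 of histone H3, and Kdm2b also recruits a Polycomb complex to CpG islands. Kdm2b (chromosome 5) was measured by 2 probes. The second had -0.68, -0.84 and -1.86 on SDHD-ESR replicates 1, 3 and 4 and -0.11, -0.14 and -0.23 on +/- replicates 1, 2 and 4, with no ratio on the other arrays. All its SDHD-ESR values lie below all +/- values, and the difference was -0.96 (SE 0.34, unadjusted p = 0.0335 and adjusted p = 0.991 from limma). Over all probes 1.94% were separated in this direction. With 3 arrays against 3, an exact two-sided permutation test cannot go below 0.1, the value found here. The first Kdm2b probe, with replicate 1 left out, had 0.84, 0.06 and 0.25 in SDHD-ESR and 0.17, 0.40, 0.70 and 0.82 in +/-. These overlap, and the difference was -0.14 (SE 0.25). The lower value of Kdm2b thus rests on 1 of 2 probes, and without SDHD-ESR replicate 4 that probe differed by -0.60. With the slide as a block it differed by -0.83 (unadjusted p = 0.0667 from limma). Its value on SDHD-ESR replicate 1 is the ratio of a dim spot, with both channels' numbers at most 100, and without that value the probe has too few values to be tested. Both Kdm2a probes were near 0, with differences of 0.02 and 0.06.

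Kdm3a, Kdm3b and Jmjd1c form the group that removes methyl groups from lysine 9 of histone H3. Kdm3a is a known target of hypoxia-inducible factors. With replicate 1 left out it had 0.49, 0.14 and 0.01 in SDHD-ESR and -0.12, 0.17, 0.66 and 0.68 in +/-. The SDHD-ESR values lie inside the +/- range, and the difference was -0.13 (95% interval -0.73 to 0.47). Within the slides it was 0.46 and -0.59. The 2 Kdm3b probes differed by -0.14 and 0.17, and Jmjd1c by -0.06.

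The Kdm4 enzymes act on lysine 9 of histone H3, some of them also on lysine 36, and include the noisiest members. Kdm4d had -0.11, 2.73 and 0.27 in SDHD-ESR, with replicate 1 left out, and -1.99, -0.12, 2.31 and -0.48 in +/-. Both groups have 1 very high array. The difference of 1.03, the highest of all members at gene level, has a 95% interval of -1.74 to 3.81. Of its 7 values 2 are ratios of dim spots. Kdm4a differed by 0.10 with its first probe and by 1.33 with its second, which has 4 such dim values. Kdm4b and Kdm4c, both induced by hypoxia in other cells, differed by -0.11 and -0.17.

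The Kdm5 enzymes remove methyl groups from lysine 4 of histone H3. They were the most even group. All 5 tested probes had differences between -0.07 and 0.10, and 0 of their values were dim. Kdm5a, with replicate 1 left out, had the largest at gene level, with 0.49, 0.11 and 0.29 in SDHD-ESR and -0.06, 0.27, 0.24 and 0.34 in +/-, which overlap (difference 0.10, SE 0.16). For the first Kdm5b probe the SDHD-ESR mean was 0.54 ± 0.07 (SD over 3 arrays, replicate 1 left out) and the +/- mean 0.55 ± 0.17 (SD over 4 arrays). The Y-linked Kdm5d had a ratio on 1 SDHD-ESR array outside the displaced lines (-0.58) and on all 4 +/- arrays (-0.29, -0.39, -1.15 and 1.02), too few to test.

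The Kdm6 group acts on lysine 27 of histone H3. Its Y-linked member Uty, a demethylase with weak activity, had the highest difference at gene level after Kdm4d. Uty probe 1 had 0.78, -0.13 and 0.31 in SDHD-ESR, with replicate 1 left out, and -1.07, -0.15, -1.37 and -0.13 in +/-. The lowest SDHD-ESR value and the highest +/- value are equal at this rounding, so that the groups are barely separate. The difference was 1.00 (SE 0.40, unadjusted p = 0.0435, adjusted p = 0.991 from limma), and 1.71% of all probes were separated in this direction. An exact permutation test gave p = 0.114. The difference was 1.38 within slide 1 and 0.84 within slide 2. With the displaced lines of replicate 1 moved back, that array reads -0.54, the groups overlap and the difference is 0.78. The other Uty probe had a ratio on 3 arrays only, -0.12 and -2.81 in SDHD-ESR and 5.46 in +/-. Kdm6a, the X-linked copy of Uty, and the autosomal Kdm6b differed by -0.14 and -0.18. Probes of such X and Y copies can bind RNA of both, so the values of Uty, Kdm6a, Kdm5c and Kdm5d are uncertain in this respect. All mice were male.

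The PHD finger demethylases Kdm7a, Phf2 and Phf8 bind methylated lysine 4 of histone H3 and act on nearby marks. Phf8 (X chromosome) has 3 probes. The second had 0.21, -0.96, 0.06 and 0.10 in SDHD-ESR and 0.22, 0.49, 0.82 and 0.61 in +/-. SDHD-ESR is lower on all arrays, though its replicate 1 is nearly level with +/- replicate 1. The difference was -0.68 (SE 0.28, unadjusted p = 0.0463 and adjusted p = 0.991 from limma), with an exact permutation p of 0.0286, the smallest that 4 arrays against 4 can give. Separate groups of 4 always give this p, and 1.94% of all probes were separated in this direction. The difference was -0.41 without SDHD-ESR replicate 2, whose value is the only dim one of this probe. The other Phf8 probes, annotated to another transcript, had 4 dim values each. The first had 1.28, -0.64, -0.20 and -0.42 in SDHD-ESR and -0.51, -0.18, -1.47 and -0.52 in +/-. The third had -0.40, -0.08 and -0.82 in SDHD-ESR, without a ratio on replicate 1, and -0.27, -0.20, -0.33 and 1.51 in +/-. Their differences of 0.68 and -0.61 have opposite signs, and the groups overlap. Phf2 had 0.26, 0.62, 0.01 and 0.18 in SDHD-ESR and 0.28, 0.14, 0.80 and 0.89 in +/-, a difference of -0.26 (SE 0.22). The 2 probes of Kdm7a differed by 0.26 and 0.03.

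Of the other JmjC proteins, which mostly hydroxylate proteins, Jmjd4 had the largest difference. It had 0.76, 0.50, -0.02 and 0.04 in SDHD-ESR and 0.15, -0.17, 0.28 and 0.18 in +/-. The high SDHD-ESR arrays are both on slide 1, where the difference was 0.64. It was -0.22 on slide 2 and 0.21 (SE 0.21) over both. Kdm8, Jmjd6, Jmjd7 and Jmjd8 differed by -0.04, -0.12, -0.07 and 0.11.

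The AlkB family and Fto repair alkylated bases or remove methyl groups from RNA, as Alkbh5 and Fto do for N6-methyladenosine. Of 9 genes, 7 were above 0 and 2 below, with a median of 0.07, and 0 of 12 probes passed the unadjusted test. The median was 0.52 within slide 1 and -0.31 within slide 2. Alkbh4, a demethylase of actin, had the largest difference. It had 0.06, 0.17, 0.05 and -0.34 in SDHD-ESR and 0.04, -0.08, 0.79 and 0.59 in +/-. The genotypes are apart on both slides but in opposite directions, with SDHD-ESR the higher on slide 1 (0.13) and the lower on slide 2 (-0.83), and the difference over both was -0.35 (SE 0.23). Fto differed by 0.12, with replicate 1 left out, and the 3 probes of Alkbh5 by 0.12, 0.13 and 0.07. A probe of Alkbh7 had ratios within 0.01 of 0 on 4 arrays of slide 1.

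The collagen prolyl 4-hydroxylases hydroxylate proline in collagen chains so that the triple helix is stable, and the Plod lysyl hydroxylases prepare lysines for cross-links and sugars. P4ha1, P4ha2, Plod1 and Plod2 are known targets of hypoxia-inducible factors. The promoters of P4ha1 and P4ha2 are shown because these genes are the classic readout of that pathway among the members. The 250 bases before the RefSeq start (build GRCm38.p6, plus strand) are P4ha1 at chr10:59323046-59323295 and P4ha2 at chr11:54100674-54100923. Capitals mark the core of the hypoxia response element, ACGTG or GCGTG on either strand (CACGT or CACGC on the other), overlapping matches included.
P4ha1: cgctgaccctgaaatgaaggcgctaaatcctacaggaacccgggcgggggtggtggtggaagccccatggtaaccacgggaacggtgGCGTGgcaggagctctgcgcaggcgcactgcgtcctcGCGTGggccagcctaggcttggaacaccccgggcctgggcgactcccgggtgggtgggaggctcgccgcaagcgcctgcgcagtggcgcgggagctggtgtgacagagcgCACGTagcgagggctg
P4ha2: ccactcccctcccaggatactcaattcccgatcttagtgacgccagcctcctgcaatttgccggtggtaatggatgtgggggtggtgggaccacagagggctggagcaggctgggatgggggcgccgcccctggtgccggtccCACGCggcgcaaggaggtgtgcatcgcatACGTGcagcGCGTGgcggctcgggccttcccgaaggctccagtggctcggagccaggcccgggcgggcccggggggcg
Each holds the core 3 times. Of all 32851 promoters in the table, 38.6% hold it at least 1 time and 6.58% at least 3 times.

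Neither gene passed a threshold between the genotypes. P4ha2, with replicate 1 left out, had 0.46, -0.22 and 0.13 in SDHD-ESR and 0.39, 0.40, 0.45 and 0.25 in +/-. The +/- arrays are even, and 2 of 3 SDHD-ESR arrays lie below all of them. The difference was -0.25 (95% interval -0.69 to 0.18). P4ha1 had 0.20, 0.23 and -0.07 in SDHD-ESR and 0.08, -0.22, 0.57 and 0.25 in +/- with its first probe, again with replicate 1 left out. The second had 0.68, -0.34 and 0.04 in SDHD-ESR and 0.74, 0.29, 0.72 and 0.14 in +/-. The groups overlap with both, and the differences were -0.05 (SE 0.21) and -0.35 (SE 0.29). The 2 probes of P4ha3 differed by -0.19 and -0.07. All 3 P4ha genes were thus below 0 (median -0.20), and none passed either threshold. Their median was 0.08 within slide 1 and -0.40 within slide 2.

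Plod1 was low on SDHD-ESR replicates 3 and 4 and on +/- replicate 2. Its first probe had -0.04, -0.36, -0.37 and -0.62 in SDHD-ESR and -0.12, -0.50, 0.01 and -0.13 in +/-. Its second had -0.07, 0.39, -0.84 and -0.44 in SDHD-ESR and -0.02, -0.97, 0.17 and 0.52 in +/-. The groups overlap, and both differed by -0.16 (SE 0.17 and 0.38). Plod2 had -0.21, 0.64, 0.77 and 0.54 in SDHD-ESR and 0.11, 0.41, 0.34 and 0.14 in +/-. SDHD-ESR is above every +/- array on 3 of 4 arrays and below them on replicate 1, and the difference was 0.19 (95% interval -0.34 to 0.71). Plod3 differed by 0.06.

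Among the 7 members listed as hypoxia inducible (Kdm3a, Kdm4b, Kdm4c, P4ha1, P4ha2, Plod1 and Plod2), 6 genes were below 0 and 1 above, with a median of -0.16. None of their 9 probes passed the unadjusted test. The intervals exclude a doubling in SDHD-ESR for all 9 of these probes. With the array medians set to 0, the median was -0.11. Without this step it was 0.38 within slide 1 and -0.45 within slide 2, against 0.27 and -0.33 over all genes. Of all 18568 genes, 10626 were below 0, with a median of -0.05.

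Genes for the substrates of the collagen hydroxylases lay mostly below 0. Of 16 collagens and collagen-processing genes, 13 were below 0 in SDHD-ESR and 3 above, with a median of -0.40. Of all 18568 genes, 10626 were below 0. The median of the collagen list was 0.04 within slide 1 and -0.63 within slide 2, against 0.27 and -0.33 over all genes. In this list 4 of 28 probes passed the unadjusted test, all lower (14.3%, against 3.06% of all probes). Col3a1 differed by -1.20 (SE 0.32), Col1a1 by -1.05 (SE 0.43) and Serpinh1, the collagen chaperone, by -0.61 (SE 0.25). Each has an adjusted p of 0.991 from limma. The fibroblast and connective tissue list also holds Col1a1 and Col3a1, so it is not independent of the collagen list. Its array medians ran from -0.94 to -0.02 in SDHD-ESR and from 0.20 to 0.51 in +/-, without overlap. The part of these cells in the P4ha and Plod values was not tested.

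Ogfod1 hydroxylates a ribosomal protein, and Ogfod2 and Ogfod3 are less well known relatives. Ogfod1 had 0.93, 0.08 and 0.61 in SDHD-ESR and 0.31, 0.93, 0.93 and 0.84 in +/- with its first probe, with replicate 1 left out. Its second probe had 0.06, -0.63 and 0.13 in SDHD-ESR and 0.24, -0.28, 0.07 and 0.48 in +/-. The groups overlap with both, and the differences were -0.21 (SE 0.26) and -0.28 (SE 0.26). Ogfod2 and Ogfod3 differed by 0.00 and 0.02.

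Dioxygenases of the same class outside the rule, among them the HIF prolyl hydroxylases, prolyl 3-hydroxylases and enzymes of carnitine synthesis, had a median difference of -0.25. Of 19 genes 15 were below 0 in SDHD-ESR, as were 10626 of all 18568 genes. The median of the list was 0.14 within slide 1 and -0.44 within slide 2, against 0.27 and -0.33 over all genes. Of the 34 probes in this list 2 passed the unadjusted test, both lower (5.88%, against 3.06% of all probes). They were Tmlhe (-0.52, SE 0.17), the first enzyme of carnitine synthesis, and P3h2 (-0.49, SE 0.18), a prolyl 3-hydroxylase of collagen. None passed the adjusted test. Enzymes that make or use 2-oxoglutarate or succinate had a median of -0.01 over 16 genes, and besides Sdhd none of their probes passed the unadjusted test.

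Against the +/+ pool, dioxygenases lay more often above than below 0 in both genotypes. The pool is 1 control sample, it is shared by both comparisons, and no dye swap was made, so dye bias stays in these ratios. In SDHD-ESR 47 of 65 member probes were above 0 (72.3%, against 55.1% of all probes), and in +/- 49 were (75.4%, against 61.2%). The median over member genes was 0.24 in SDHD-ESR and 0.25 in +/-, against 0.04 and 0.09 over all genes. Histone methyltransferases had 0.29 and 0.31, so a median above that of all genes was not particular to the members. Dioxygenases outside the rule had 0.05 and 0.18. Of the member values 6.61% were ratios of dim spots, against 11.8% for all genes. At an unadjusted p of 0.05, 14 of 65 member probes were higher in SDHD-ESR than in the pool (21.5%, against 11.7% of all probes) and 2 were lower (3.08%, against 6.95%). In +/-, 17 were higher (26.2%, against 16.8%) and 2 lower (3.08%, against 5.17%). With the array medians set to 0, 16 were higher in SDHD-ESR (24.6%, against 14% of all probes) and 2 lower (3.08%, against 10%), and in +/- 12 were higher (18.5%, against 14.3%) and 2 lower (3.08%, against 8.62%). No member passed the adjusted test in either comparison, with smallest adjusted p of 0.104 in SDHD-ESR and 0.0911 in +/-, both for Kdm5b. Of all probes, 0.0297% (8 probes) passed it in SDHD-ESR and 0% in +/-.

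Of the members past the unadjusted threshold against the pool in both genotypes, Ogfod1 probe 1 had 0.54 (SE 0.20, replicate 1 left out) in SDHD-ESR and 0.75 (SE 0.17) in +/-. Ogfod1 probe 2 had -0.15 in SDHD-ESR and 0.13 in +/- and passed in neither. Alkbh5 probe 3 had 0.68 (SE 0.14, replicate 1 left out) in SDHD-ESR and 0.61 (SE 0.12) in +/-. Alkbh5 probe 1 passed in neither (0.29 and 0.17), and probe 2 passed in SDHD-ESR only (0.38, with 0.25 in +/-). Ogfod2 had 0.59 (SE 0.14) in SDHD-ESR and 0.59 (SE 0.14) in +/-, and Ogfod3 had 0.39 (SE 0.08) in SDHD-ESR and 0.37 (SE 0.08) in +/-. Kdm8, a JmjC protein named as a lysine demethylase, had 0.31 (SE 0.10) in SDHD-ESR and 0.35 (SE 0.10) in +/-. Alkbh8 and the first probes of Kdm4a, Kdm5b and Kdm5c were also past the threshold and above 0 in both. Among those below 0 at the unadjusted threshold were Kdm2b probe 2 (-1.12, SE 0.24) and Plod1 probe 1 (-0.35, SE 0.12) in SDHD-ESR, and Kdm3b probe 2 (-0.69, SE 0.25) and Uty probe 1 (-0.68, SE 0.26) in +/-. Kdm2b probe 1 was above 0 in SDHD-ESR (0.38), and Kdm3b probe 1 was above 0 in +/- (0.18). Plod1 probe 2 was below 0 in SDHD-ESR (-0.24).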

How the data were processed

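The deposited values are 1 number per spot and array, which the authors obtained from two-color Agilent 4x44k V2 scans and analysed in Multi-Experiment Viewer. The sources used here state no background correction or dye normalization. The deposited log2 ratios carry no intensity, so no level or depth is known and the number of arrays (4 per genotype) limits the precision. The base of 2 was settled from the values, since 18.7% to 22.5% of them per array are exact log2 ratios of whole numbers of at most 100. Whole numbers stand in for absent ratios (11.6% to 15.6% of spots on SDHD-ESR arrays, 9.54% to 13.9% on +/- arrays) and were left out. The order of spots and the sign were rebuilt from the chip layout, for which Sdhd was the check. Copies of 387 accessions had an SD of 0.206 in this order and of 0.787 in probe order.

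Cell means were fitted with limma 3.58.1 in R 4.3.3 to 26901 named probes with at least 3 values per group, without centring, with Benjamini-Hochberg adjustment over all of them. A gene value is the median over its tested probes on an array. Each array pools 2 mice, and p-values measure the spread between such pools. The scripts were tested on simulated data. The members and lists were chosen with earlier results of these data known. Values on every array are given for members at an unadjusted p of 0.05, for those without overlap, for the largest difference in each role group, and for Tet1, Tet2, Tet3, Kdm3a, P4ha1, P4ha2, Plod1 and Plod2. Promoters are from RefSeq (GRCm38.p6), where 38 member genes had an entry. Alternatives covered centring, quantile normalization, the displaced lines, whole numbers, missing values, slide and replicate blocks, the methods' t-test, means over probes and single arrays left out.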

Additional observations from a re-analysis of the deposited data

Results flagged for a closer look

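In 6 of 36 groups of 4 values among the named probes, 1 array stood apart from the other 3 (by Dixon's criterion on the gap over the range). For independent, normally distributed values, chance alone gives about 1 in 20 such groups. The groups here share arrays and genes and were partly chosen for large differences, so that share need not hold. Phf8 probe 2 was -0.96 on SDHD-ESR replicate 2, with the other SDHD-ESR arrays between 0.06 and 0.21. Tet1 probe 1 was 3.29 on SDHD-ESR replicate 4, with the others between -0.55 and 0.10, and -1.12 on +/- replicate 1, with the others between 0.51 and 0.79. Tet1 probe 2 was 0.97 on +/- replicate 2, with the others between -0.20 and -0.06. Phf8 probe 3 was 1.51 on +/- replicate 4, with the others between -0.33 and -0.20. Ogfod1 probe 1 was 0.31 on +/- replicate 1, with the others between 0.84 and 0.93.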

How the results depend on the processing

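No member passed the adjusted test between SDHD-ESR and +/- under any alternative run. The 3 members at an unadjusted p of 0.05 became 1 with arrays centred, 1 with arrays centred and the slide as a block, 0 with the methods' t-test, 0 with gene means over probes and 0 with arrays centred and the displaced lines moved back. They were 1 to 4 with single arrays left out. Counts with gene means, here and below, are of genes (18688 fitted, 44 of them members) and not of probes. Of all probes, 0 passed the adjusted test as reported, and 1 did with arrays centred, 1 with gene means and 1 with arrays centred and lines moved back. The median member difference was 0.34 within slide 1 and -0.33 within slide 2.

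For SDHD-ESR against the pool, the adjusted test gave 0 members as reported, 4 after quantile normalization, 2 with arrays centred and lines moved back, and 2 with arrays centred and the slide as a block. The 16 members at the unadjusted threshold became 10 with gene means and 6 to 18 with single arrays left out. The 8 probes called over the whole array became 742 with arrays centred, 1192 after quantile normalization, 15 with values on every array only, 80 with lines moved back, 2 with the slide as a block, 0 with the methods' t-test, 5 with gene means, 25 without dim values, 1449 with arrays centred and lines moved back, 433 with arrays centred and the slide as a block, and 0 to 3 with single arrays left out. For +/- against the pool, quantile normalization gave 8 members and 1790 probes in all where 0 were called as reported. The 19 members at the unadjusted threshold became 10 with gene means and 9 to 23 with single arrays left out, which gave 0 to 2 probes over the whole array. The cause was not tested.

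Whether replicate numbers pair the arrays is not stated by the labels and cannot be settled from 4 arrays per group. Same-numbered arrays had correlations of 0.13, 0.14, -0.02 and 0.02 in their deviations over 10122 probes, and replicates 1 and 2 correlated best with their own number while 3 and 4 did not. With the replicate block, 1 member reached the unadjusted threshold for SDHD-ESR minus +/-, 10 did for SDHD-ESR against the pool, and 1 probe in all passed the adjusted test there. Leaving out dim values and both settings that join centring with another choice were chosen after seeing the data. Of 372 differences of 17 named genes under other settings, 23 moved by the spread or more, 18 of them within 1 slide.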

Other observations

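Enzymes that oppose or parallel the dioxygenases were also measured. Histone methyltransferases had a median difference between SDHD-ESR and +/- of -0.06 over 14 genes, 5 above 0 and 9 below. DNA and RNA methyltransferases had one of -0.22 over 7 genes, 1 above 0 and 6 below, with 0.23 within slide 1 and -0.44 within slide 2. The flavin-dependent histone demethylases Kdm1a and Kdm1b, which do not use 2-oxoglutarate, differed by -0.12 and -0.43. No probe of these lists passed the unadjusted test.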
